A study of Mus musculus with 30 samples.

Results

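The 10 genes described here encode RIPK1 kinase, the target of the drug given in this study, its partners in cell death and the proteins that regulate it. They were taken by name among the protein-coding genes of the deposited annotation. All 10 were found, of 30952 genes measured, 17889 of them protein-coding. They were Ripk1, Ripk3, Mlkl, Casp8, Fadd, Cflar, Tradd, Zbp1, Tnfrsf1a and Cyld.

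RNA-seq was done on microglia and astrocytes sorted from the spinal cord of female C57BL/6 mice. Each cell type had 4 libraries from naive mice, 6 from mice with EAE given vehicle (EAE-vehicle) and 5 from mice with EAE given a RIPK1 inhibitor (EAE-RIPK1inh), 30 in all. EAE, experimental autoimmune encephalomyelitis, is a model of multiple sclerosis in which immunization against a myelin peptide, here MOG35-55, brings T cells and myeloid cells into the spinal cord. Immunization was at 8 to 10 weeks of age, in complete Freund's adjuvant and with pertussis toxin, and the age of the naive mice was not given. Dosing began at a clinical score of about 1 and lasted 3 days, by oral gavage 2 times a day. The vehicle was 20% Captisol and the drug was GSK'547 at 50 mg/kg. No naive mouse received the drug, so its effect outside EAE cannot be read from these libraries. No vehicle or dosing was listed for the naive mice either. EAE-vehicle against naive thus holds immunization, adjuvant, toxin and vehicle dosing together. Microglia were gated as CD11b+ CD45int CX3CR1+ cells and astrocytes as GLAST+ cells without CD11b, CD45 and CD140a.

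RIPK1 is recruited to the TNF receptor TNFR1, where it is ubiquitinated and supports NF-kB signaling. When that complex is disturbed, RIPK1 joins FADD and caspase-8. Where caspase-8 is not active, RIPK1 can engage RIPK3, which in turn activates MLKL, the protein that ruptures the membrane in necroptosis. ZBP1, a sensor of Z-form nucleic acid and a known interferon-induced gene, can engage RIPK3 directly. The inhibitor blocks the kinase activity of RIPK1, which the RNA level of Ripk1 does not report.

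Values are log2 FPKM after quantile normalization across all libraries. In each library the genes without reads shared a low stretch of values that followed their order in the table, and a gene above that stretch is said to have signal. Per library, 8710 to 20398 genes had signal in microglia and 6728 to 22981 in astrocytes, and 4 libraries had under 10000, namely naive microglia library 4, naive astrocyte library 2, EAE-vehicle astrocyte library 1 and EAE-RIPK1inh astrocyte library 5. Microglia markers averaged 9.68 to 11.73 in the microglia libraries and 1.04 to 5.02 in the astrocyte libraries, where astrocyte markers averaged 7.85 to 9.39. Oligodendrocyte markers averaged 6.19 to 9.91 in the astrocyte libraries and lay above the astrocyte markers in EAE-vehicle libraries 2, 3, 5 and 6 and EAE-RIPK1inh libraries 3 and 4, and neuron markers averaged 4.17 to 6.38. The markers of the labelled cell type were thus high in every library, and those of oligodendrocytes and neurons were also present in the astrocyte libraries. The codes of the 2 EAE-vehicle libraries numbered 1 fell outside the run of codes of their cell type, although both had the markers of their label. A gene was called where its fold passed 1.5 and its unadjusted p was under 0.05, the cutoff of the study, and is said to have risen or fallen only where the limma p adjusted over all genes was also under 0.05.

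The 10 members had signal in 142 of 150 gene-by-library values in microglia and in 107 of 150 in astrocytes. Ripk1 (ENSMUSG00000021408, chromosome 13 from 34002363 to 34037147, plus strand) had signal in 15 of 15 microglia and 10 of 15 astrocyte libraries. Ripk3 (ENSMUSG00000022221, chromosome 14 from 55784995 to 55788865, minus strand) had it in 14 and 1. Mlkl (ENSMUSG00000012519, chromosome 8 from 111311797 to 111338177, minus strand) had it in 11 and 7, and Zbp1 (ENSMUSG00000027514, chromosome 2 from 173206612 to 173218923, minus strand) in 13 and 10. These positions are those of GRCm38. Ripk1, Mlkl, Casp8, Fadd and Cyld are marked as confounded in the deposited annotation, as are 15717 of all 30952 genes, a mark whose meaning was not given.

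The promoters of 3 members are shown, those of Mlkl and Cflar because their RNA rose in EAE microglia, and that of Ripk1 because it encodes the drug target. The rise of Cflar was close to the adjusted threshold. The sequences are from RefSeq on GRCm38.p6, 250 bases before to 50 bases after a transcription start, each read along its gene. The table held a promoter for 8 of the 10 members, 2 for Ripk1 and none for Tradd and Zbp1. Capitals mark matches, on either strand, to GAAA and GAAA separated by any 2 bases, a pair of half-sites of the interferon-stimulated response element (ISRE), or to TTCNNNGAA, the STAT-binding GAS element.
Mlkl, chr8:111338156-111338455, minus strand: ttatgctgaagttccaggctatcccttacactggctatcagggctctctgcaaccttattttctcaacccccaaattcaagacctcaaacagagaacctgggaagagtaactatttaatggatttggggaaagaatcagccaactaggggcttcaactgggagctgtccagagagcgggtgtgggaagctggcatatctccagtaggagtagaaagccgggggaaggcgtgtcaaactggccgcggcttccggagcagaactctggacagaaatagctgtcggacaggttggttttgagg
Cflar, chr1:58711241-58711540, plus strand: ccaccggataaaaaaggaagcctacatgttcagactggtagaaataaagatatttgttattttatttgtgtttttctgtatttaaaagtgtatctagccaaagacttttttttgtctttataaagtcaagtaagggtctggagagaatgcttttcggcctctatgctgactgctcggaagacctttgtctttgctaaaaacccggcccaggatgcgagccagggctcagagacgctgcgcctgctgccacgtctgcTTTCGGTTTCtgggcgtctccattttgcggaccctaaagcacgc
Ripk1, chr13:34002624-34002923, plus strand, the later of its 2 starts: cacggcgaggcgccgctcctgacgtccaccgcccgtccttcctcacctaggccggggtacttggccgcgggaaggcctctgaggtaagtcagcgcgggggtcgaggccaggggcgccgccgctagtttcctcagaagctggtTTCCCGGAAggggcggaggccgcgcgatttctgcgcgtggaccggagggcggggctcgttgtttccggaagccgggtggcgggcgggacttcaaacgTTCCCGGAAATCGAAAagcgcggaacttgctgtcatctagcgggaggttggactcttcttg

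In the Cflar promoter the match TTTCGGTTTC lay on the minus strand, 6 bases after the start. In the Ripk1 promoter shown TTCCCGGAA occurred 2 times, beginning at positions 143 and 240 of the printed sequence, and the second overlapped GAAATCGAAA, which began at position 246. The Mlkl window held neither motif, nor the NF-kB letters, GGGA and CC separated by any 4 bases. The Ripk1 window of the earlier start, chr13:34002113-34002412, is not printed and held none of these motifs either. The ISRE letters were found in 2 of the 9 member promoters and in 3.44% of the 32851 promoters of the table. TTCNNNGAA was in 2 of 9 against 8.3%, the other being that of Tnfrsf1a, and the NF-kB letters in 1 of 9, that of Cyld, against 20.7%. These are matches of letters and not measured binding sites.

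The first comparison asks which members differ between microglia of EAE-vehicle and naive mice. Zbp1 went from signal in 2 of 4 naive libraries to the highest mean level of the 10 members in EAE-vehicle. Mlkl went from no signal to signal in every EAE-vehicle library. Cflar rose by 0.60 on the log2 scale, with a limma adjusted p of 0.04588. Of the 10 members, 4 were called, all higher, against 12.0% of the 28958 genes tested in either direction and 6.13% higher, and 3 rose with an adjusted p under 0.05, against 2.37%. The median difference was 0.43 over the members and -0.02 over all genes.

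Zbp1 stood at 1.91, 3.06, 0.03 and 0.09 in the 4 naive microglia libraries, the last 2 without signal. Those 2 libraries had 12514 and 8710 genes with signal, and the first 2 had 15440 and 15639. In the 6 EAE-vehicle libraries Zbp1 ranged from 7.32 to 8.05 with a median of 7.45. The groups did not overlap, and the lowest EAE-vehicle library was far above the highest naive one. Zbp1 was higher by 6.25 on the log2 scale (SE 0.48, limma adjusted p = 2.162e-06), a value that depends on the naive libraries without signal, and the exact two-sided permutation test gave p = 0.00952, the smallest that 4 against 6 libraries allow.

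Mlkl, the executioner of necroptosis, was at 0.15, 0.14, 0.26 and 0.78 in naive microglia, all without signal. In EAE-vehicle microglia it had signal in all 6 libraries, from 3.00 to 4.79 with a median of 3.86. The groups did not overlap. No fold is given against a group without signal. The limma adjusted p was 0.0005155 and the exact permutation p was again 0.00952.

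Cflar (ENSMUSG00000026031, chromosome 1 from 58711508 to 58758884, plus strand) encodes cFLIP, which pairs with caspase-8 and restrains both apoptosis and necroptosis. It was at 5.81, 5.82, 5.86 and 5.78 in naive microglia, a range of little width, and from 6.15 to 6.82 with a median of 6.33 in EAE-vehicle microglia. The groups did not overlap. Cflar rose by 0.60 (SE 0.16, limma adjusted p = 0.04588, exact permutation p = 0.00952), but its adjusted p was under 0.05 in only 1 of the 15 fits that left out a library, ranging from 0.046 to 0.094, with the difference between 0.52 and 0.66. The call itself was lost without EAE-vehicle library 2 (0.52) or 3 (0.55). All 3 genes that rose had groups that did not overlap, as did 2.94% of all genes in that direction.

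Ripk3 was called without passing the adjusted threshold. It was at 2.99, 1.48, 2.62 and 0 in naive microglia, the 0 in the library with 8710 genes with signal, and from 1.10 to 4.26 with a median of 3.57 in EAE-vehicle microglia. The groups overlapped. The difference was 1.51 (SE 0.66, limma adjusted p = 0.3155, exact permutation p = 0.124). The call was lost without naive library 2 (1.41) or 4 (0.92), or without EAE-vehicle library 1 (1.31), 5 (1.35) or 6 (1.31).

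**Figure D1:**
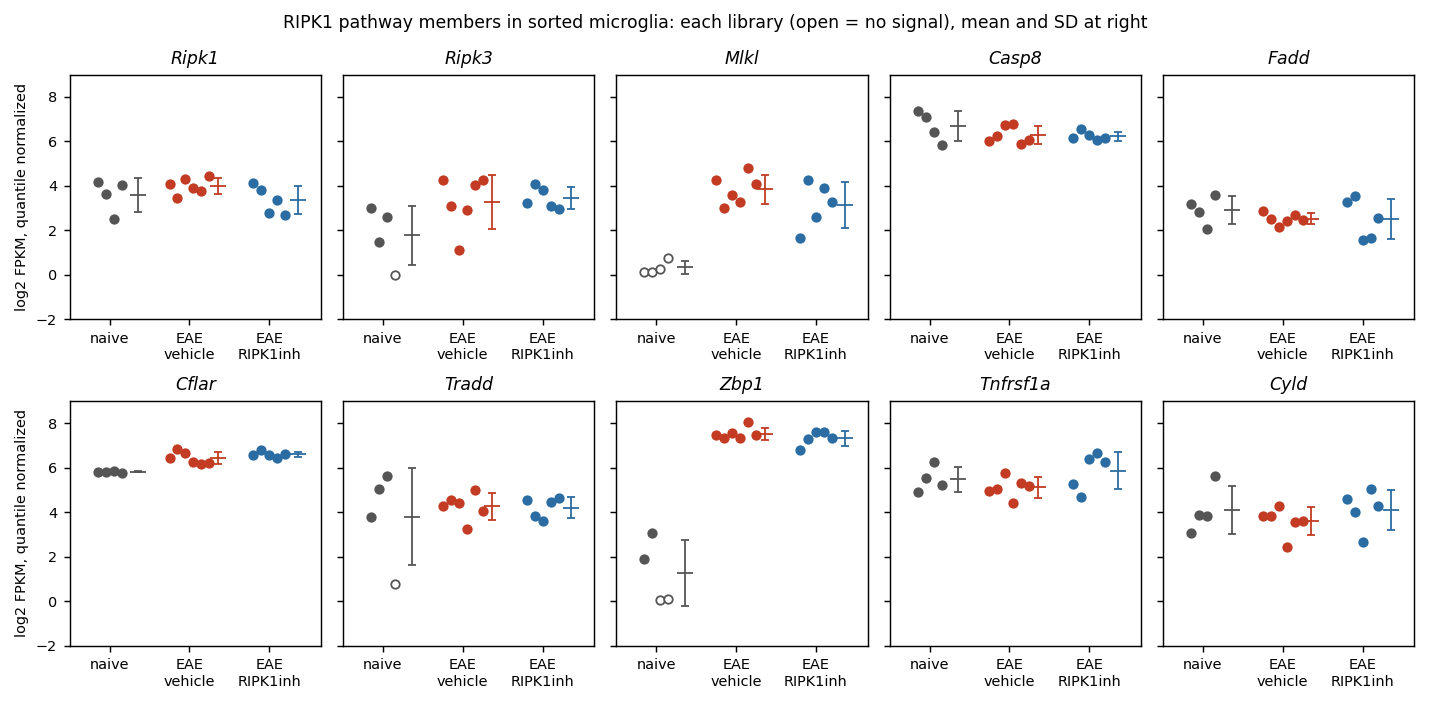
Log2 FPKM of the 10 members in each microglia library, with naive in grey, EAE-vehicle in red and EAE-RIPK1inh in blue. Open points have no signal, and the bar at the right of each group is the mean with its SD. Zbp1 and Mlkl in EAE lie above all 4 naive libraries, and the 2 EAE groups overlap in every panel.

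Ripk1 itself was at 4.15, 3.65, 2.51 and 4.05 in naive microglia and from 3.44 to 4.42 with a median of 3.99 in EAE-vehicle microglia. The groups overlapped, and the difference of 0.40 (SE 0.37, 95% interval -0.39 to 1.19, limma adjusted p = 0.7474) was within the spread of the libraries. Casp8 (ENSMUSG00000026029), the protease that cleaves RIPK1 and RIPK3, was the highest member in naive microglia at 7.36, 7.09, 6.41 and 5.85. It was between 5.89 and 6.78 in EAE-vehicle microglia, a difference of -0.39 (SE 0.28, limma adjusted p = 0.6041), and it was called lower, at -0.67, once naive library 4 was left out. Fadd, the adaptor that binds caspase-8, Tradd, the adaptor of TNFR1, Tnfrsf1a, which encodes TNFR1, and Cyld, a deubiquitinase that acts on RIPK1, differed by -0.51 to 0.47 and none was called.

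Tradd had its whole spread set by the naive group, at 3.76, 5.04, 5.63 and 0.76, the last without signal in the library with 8710 genes with signal. The 6 EAE-vehicle libraries lay between 3.22 and 5.01. In naive microglia the order of the mean levels ran from Casp8 through Cflar, Tnfrsf1a, Cyld, Tradd, Ripk1, Fadd, Ripk3 and Zbp1 to Mlkl, and each overlapped the next in range. In EAE-vehicle microglia it ran from Zbp1 through Cflar, Casp8, Tnfrsf1a, Tradd, Ripk1, Mlkl, Cyld and Ripk3 to Fadd. There Zbp1 stood apart from Cflar, and Casp8 from Tnfrsf1a.

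Monocyte and neutrophil markers averaged 2.15 to 6.06 in naive, 3.18 to 6.81 in EAE-vehicle and 2.78 to 7.44 in EAE-RIPK1inh microglia libraries. Of the 9 markers 3 were called higher in EAE-vehicle, and 1 of them, Ms4a4c, had an adjusted p under 0.05. Ccr2 had signal in 0 of 4 naive, 4 of 6 EAE-vehicle and 4 of 5 EAE-RIPK1inh libraries. Zbp1 and Mlkl had no signal in the naive library with the marker level of 6.06, which was also without Ccr2 signal. Both had signal in the EAE-vehicle library at 3.18. The average pools monocyte and neutrophil markers and does not give the level of either cell type alone. T cell markers averaged at most 2.01 in any microglia library, and 0 of 8 were called. Of the 10 microglia markers 7 were called lower in EAE-vehicle than in naive microglia and 1 higher. The part of these cells or markers in the results for Zbp1, Mlkl and Cflar was not tested beyond these values. Fewer cells of a type and less RNA per cell cannot be told apart in such libraries.

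The second comparison asks whether the inhibitor changed the members in microglia with EAE. None of the 10 was called between EAE-RIPK1inh and EAE-vehicle, where 1.76% of all genes were called by limma and 1 gene of 28958, or 0.00345%, had an adjusted p under 0.05. No member had an unadjusted p under 0.05, and the smallest adjusted p was 0.9304. The groups overlapped for all 10 members. The comparison shares its EAE-vehicle libraries with the one above.

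Ripk1 was at 4.11, 3.82, 2.80, 3.37 and 2.70 in EAE-RIPK1inh microglia. The last 3 lay below every EAE-vehicle library and the first 2 within their range. The difference was -0.63 (SE 0.35, 95% interval -1.37 to 0.11, exact permutation p = 0.0779). Ripk1 would be called lower without naive library 3 or without EAE-RIPK1inh library 1, at -0.63 and -0.82, or with quality weights, at -0.92.

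Zbp1 stayed high at 6.80, 7.27, 7.61, 7.62 and 7.31 in EAE-RIPK1inh microglia. Its difference from EAE-vehicle was -0.20 (SE 0.45, 95% interval -1.17 to 0.76). Mlkl was at 1.67, 4.26, 2.61, 3.91 and 3.27, with 2 libraries below the lowest EAE-vehicle library. It differed by -0.69 (SE 0.45, 95% interval -1.66 to 0.27), and leaving out EAE-RIPK1inh library 2 called it lower at -0.97.

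Tnfrsf1a was at 5.28, 4.68, 6.38, 6.65 and 6.27, with 3 libraries above the highest EAE-vehicle value of 5.78. It differed by 0.74 (SE 0.37, 95% interval -0.05 to 1.54, exact permutation p = 0.0952). It would be called higher without EAE-vehicle library 3 (0.88) or EAE-RIPK1inh library 1 (0.88) or 2 (1.04). Ripk3 and Cflar differed by 0.16 and 0.17, and the intervals of Ripk3 reached from -1.16 to 1.48 and those of Cflar from -0.14 to 0.49.

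Against naive, the EAE-RIPK1inh microglia had the same 4 members called higher, against 5.35% of all genes, and 3 past the adjusted threshold, against 1.81%. Zbp1, Mlkl and Cflar again did not overlap with naive, as was the case for 2.77% of all genes in that direction. Zbp1 was higher by 6.05 (SE 0.50, limma adjusted p = 5.701e-06), and Cflar by 0.77 (SE 0.16, limma adjusted p = 0.01877). Mlkl, with no signal in naive libraries, had an adjusted p of 0.005445 by limma. The adjusted p of Mlkl and Cflar was above 0.05 in 2 of 8 alternatives, with the replicate block (0.06131 and 0.05718) and in a fit of these 2 groups alone (0.05376 and 0.06265). Ripk3 was at 3.22, 4.08, 3.83, 3.11 and 2.94, higher than naive by 1.67 (SE 0.68, limma adjusted p = 0.3132), a call that was lost without naive library 2 (1.57) or 4 (1.08) or without EAE-RIPK1inh library 2 (1.51) or 3 (1.57). Both EAE groups are compared with the same 4 naive libraries.

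In astrocytes the comparison of EAE-vehicle with naive turned on Zbp1. It was listed at 0 to 0.09 in the 4 naive libraries, all without signal, and at 4.92 to 6.80 with a median of 5.71 in the 6 EAE-vehicle libraries, all with signal. The groups did not overlap, and the limma adjusted p was 0.009793 with an exact permutation p of 0.00952. Of the 10 members 3 were called, all higher, against 6.71% of 30718 genes in either direction and 2.69% higher, and Zbp1 alone passed the adjusted threshold, against 0.342%. Groups that did not overlap, with EAE-vehicle the higher, were found for 1 member and for 0.938% of genes. The members' median difference was 0.89, and that of all genes 0.03. The members' median lay between the differences of Ripk3 and Cflar. Ripk3 had signal in 1 of the 6 EAE-vehicle libraries and in no naive one, so the size of this median depends on values without signal.

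Mlkl had no signal in any naive astrocyte library. In EAE-vehicle astrocytes it was at 1.48, 0.09, 3.76, 0.33, 4.52 and 3.97, libraries 1 and 4 without signal. The libraries thus fell into 3 high and 3 low ones, and the call (limma adjusted p = 0.7211, exact permutation p = 0.0952) was lost in 10 of the 15 fits that left out a library: without any 1 naive library, EAE-vehicle library 3, 5 or 6, or EAE-RIPK1inh library 2, 3 or 5. Adjusted p ranged from 0.6848 to 0.8757 over those 10.

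Casp8 was at 1.45, 0, 0.57 and 0 in naive astrocytes and at 4.23, 0.41, 0.23, 3.44, 4.42 and 3.23 in EAE-vehicle astrocytes. The 2 EAE-vehicle libraries at 0.41 and 0.23 lay within the naive range. The difference was 2.16 (SE 0.98, limma adjusted p = 0.6792, exact permutation p = 0.0762). The call was lost without naive library 2 (1.99), 3 (2.18) or 4 (1.99), or EAE-vehicle library 1 (1.84), 4 (2.00), 5 (1.80) or 6 (2.04).

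Ripk3 stood at 0 in the 4 naive astrocyte libraries and in 5 of the 6 EAE-vehicle libraries, the exception being library 3 at 3.99. Ripk1 was at 0.06, 2.21, 1.30 and 0 in naive astrocytes and at 0, 1.95, 0.51, 0, 0 and 1.53 in EAE-vehicle astrocytes, where 3 of 6 libraries had signal. Astrocyte levels of Ripk1 were thus near the limit of detection in both groups, and their difference was -0.23 (SE 0.65, 95% interval -1.61 to 1.16).

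Tnfrsf1a had signal in all 4 naive astrocyte libraries, at 5.13, 5.03, 5.16 and 5.24. In EAE-vehicle astrocytes it spread over 0.46, 0.53, 2.60, 4.07, 5.38 and 4.93, with 5 of the 6 libraries below the naive range. The difference was -2.15 (SE 1.08, limma adjusted p = 0.791, exact permutation p = 0.0857), which was not called. It would be called without EAE-vehicle library 5 (-2.63) or 6 (-2.54) or EAE-RIPK1inh library 1 (-2.15). Cflar was from 2.66 to 4.86 in naive and from 2.97 to 6.09 in EAE-vehicle astrocytes, a difference of 1.11 (SE 0.72) that was called once EAE-vehicle library 1 was left out (1.48). Fadd, Tradd and Cyld differed by -0.56, 1.38 and -0.88, with none called.

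The order of the mean levels in naive astrocytes ran from Tnfrsf1a through Cflar, Cyld, Fadd, Tradd, Ripk1, Casp8, Mlkl and Zbp1 to Ripk3, with Tnfrsf1a apart from Cflar and Cyld apart from Fadd. Mlkl, Zbp1 and Ripk3 had no signal in any naive astrocyte library, so their places relative to each other are not an order of levels. In EAE-vehicle astrocytes it ran from Zbp1 through Cflar, Tnfrsf1a, Casp8, Tradd, Cyld, Mlkl, Fadd and Ripk3 to Ripk1, and each overlapped the next in range. With the inhibitor Tnfrsf1a was again the highest, before Cflar, Cyld and Zbp1, and each member overlapped the next.

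**Figure D2:**
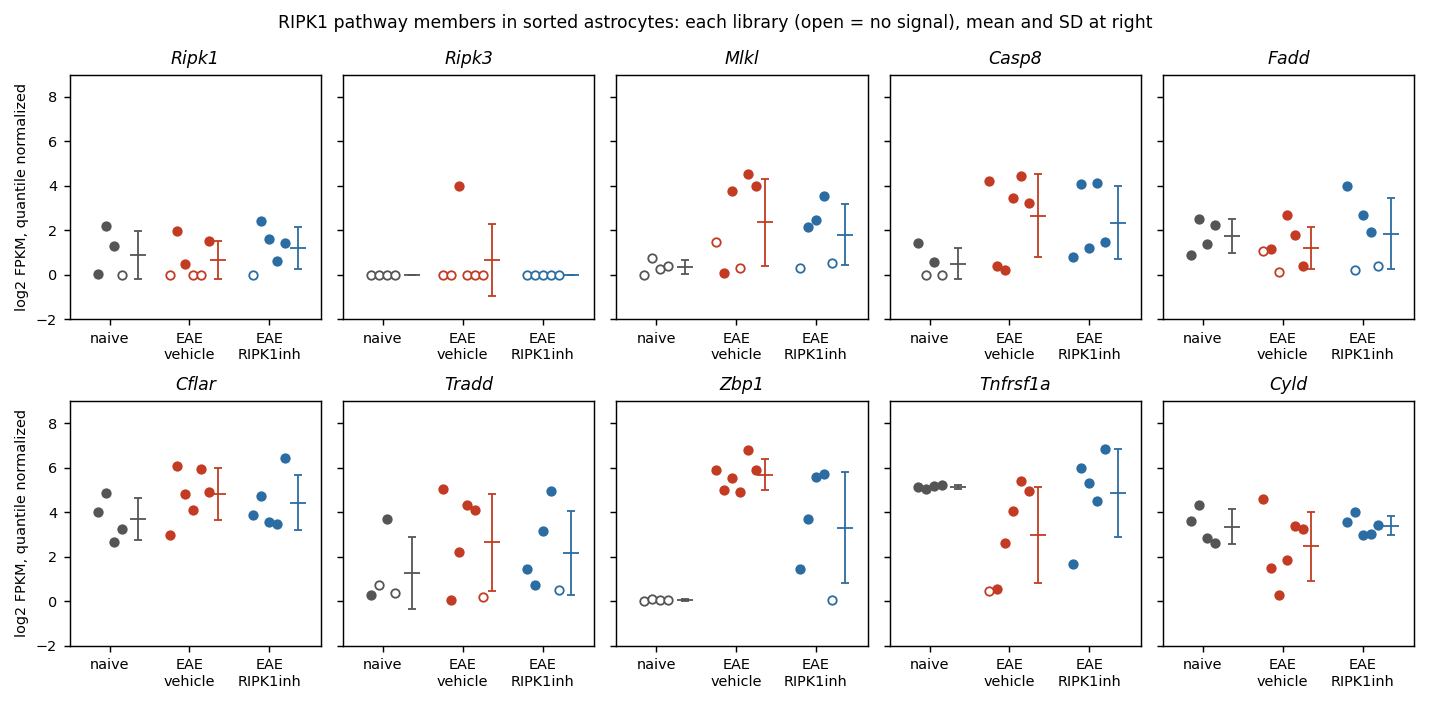
Log2 FPKM of the 10 members in each astrocyte library, with groups, open points and error bars as in the plot for microglia. Zbp1 was without signal in the 4 naive libraries and at 4.92 or above in the 6 EAE-vehicle libraries, and Ripk3 had signal in 1 of 15 libraries.

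The inhibitor comparison in astrocytes called 1 of 10 members, Zbp1, lower, against 3.02% of 30718 genes called in either direction and 1.18% lower. By limma 0 genes had an adjusted p under 0.05, and 998, or 3.25%, had an unadjusted p under 0.05. Zbp1 was at 1.46, 3.67, 5.60, 5.73 and 0.07 in EAE-RIPK1inh astrocytes, the last without signal. Libraries 3 and 4 lay within the EAE-vehicle range and the other 3 below it. The difference was -2.37 (SE 0.88, 95% interval -4.24 to -0.50, limma adjusted p = 0.8397, exact permutation p = 0.0606).

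The call for Zbp1 was lost without EAE-RIPK1inh library 1 (-1.91) or library 5 (-1.56), the latter the library with 9898 genes with signal. It was also lost with the 4 libraries of few genes with signal left out (-1.52) and with quality weights (-1.79). Against naive, Zbp1 in EAE-RIPK1inh astrocytes had an adjusted p of 0.4827 by limma and was the 1 member called, higher, against 4.63% of all genes in either direction and 1.98% higher.

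Markers of other cells moved with EAE in the astrocyte libraries. T cell markers averaged 0.17 to 0.98 in naive, 0.94 to 5.63 in EAE-vehicle and 0.84 to 5.24 in EAE-RIPK1inh libraries, and 6 of 8 were called higher in EAE-vehicle than in naive, 1 of them past the adjusted threshold. Cd3d and Cd2 had no signal in any naive library. Of the monocyte and neutrophil markers 5 of 8 tested were called higher, with averages of 0.07 to 1.01, 1.71 to 4.84 and 1.24 to 5.13 in the 3 groups, and Ly6g was at 0 in all 15 libraries. Microglia markers averaged 1.04 to 2.66, 3.01 to 5.02 and 2.88 to 3.91, with 6 of 10 called higher, and oligodendrocyte markers 6.19 to 7.39, 6.38 to 9.91 and 7.81 to 9.19, with 4 of 7. Of the 8 astrocyte markers 4 were called lower and 1 higher. Between EAE-RIPK1inh and EAE-vehicle, 0 of 8 T cell markers, 0 of 8 monocyte and neutrophil markers and 1 of 10 microglia markers, lower, were called.

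In EAE-RIPK1inh astrocytes the T cell average was 0.84, 3.18, 5.24, 5.23 and 2.23 in libraries 1 to 5, beside Zbp1 at 1.46, 3.67, 5.60, 5.73 and 0.07. In EAE-vehicle it was 3.24, 5.11, 5.18, 0.94, 5.63 and 4.52, beside Zbp1 at 5.89, 5.01, 5.52, 4.92, 6.80 and 5.89. Zbp1 was thus at 4.92 in EAE-vehicle library 4, where the T cell average of 0.94 was within the naive range, while the microglia average of 4.01 and the monocyte and neutrophil average of 1.71 were above it. The part of these cells in the results for Zbp1 and the other members in astrocytes was not tested beyond these values.

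**Figure D3:**
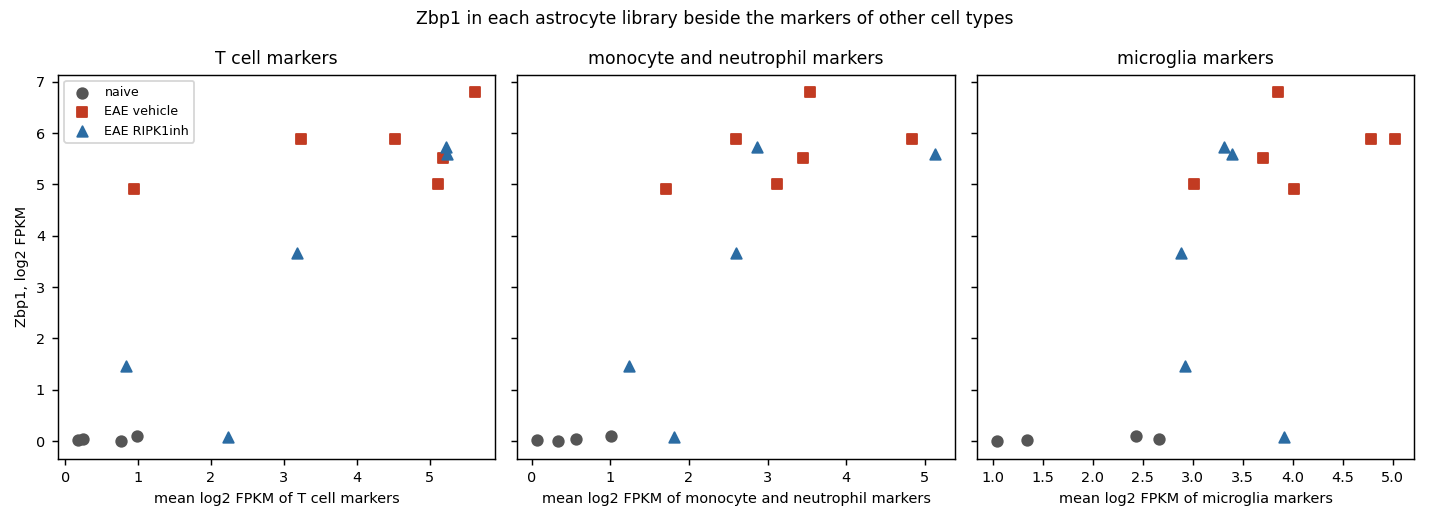
Zbp1 in each of the 15 astrocyte libraries (vertical axis, log2 FPKM) against the mean log2 FPKM of T cell, monocyte and neutrophil, and microglia markers (horizontal axes), with naive as grey circles, EAE-vehicle as red squares and EAE-RIPK1inh as blue triangles. The 4 naive libraries lie at the lower left, and 1 EAE-vehicle library has Zbp1 at 4.92 with a T cell average of 0.94.

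Of the other members in astrocytes, Tnfrsf1a was at 1.68, 6.00, 5.30, 4.51 and 6.83 with the inhibitor, 1.87 above EAE-vehicle (SE 1.01, 95% interval -0.29 to 4.03). It would be called higher without EAE-vehicle library 5 (2.35) or 6 (2.26) or EAE-RIPK1inh library 1 (2.67). Cyld was from 2.95 to 3.99 with the inhibitor and from 0.27 to 4.57 in EAE-vehicle, a difference of 0.92 (SE 0.68) that was called without EAE-vehicle library 1 (1.34). Ripk3 was listed at 0 in all 5 EAE-RIPK1inh libraries, and Ripk1 ranged from 0 to 2.44, 0.56 above EAE-vehicle (SE 0.61, 95% interval -0.74 to 1.86).

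**Figure D4:**
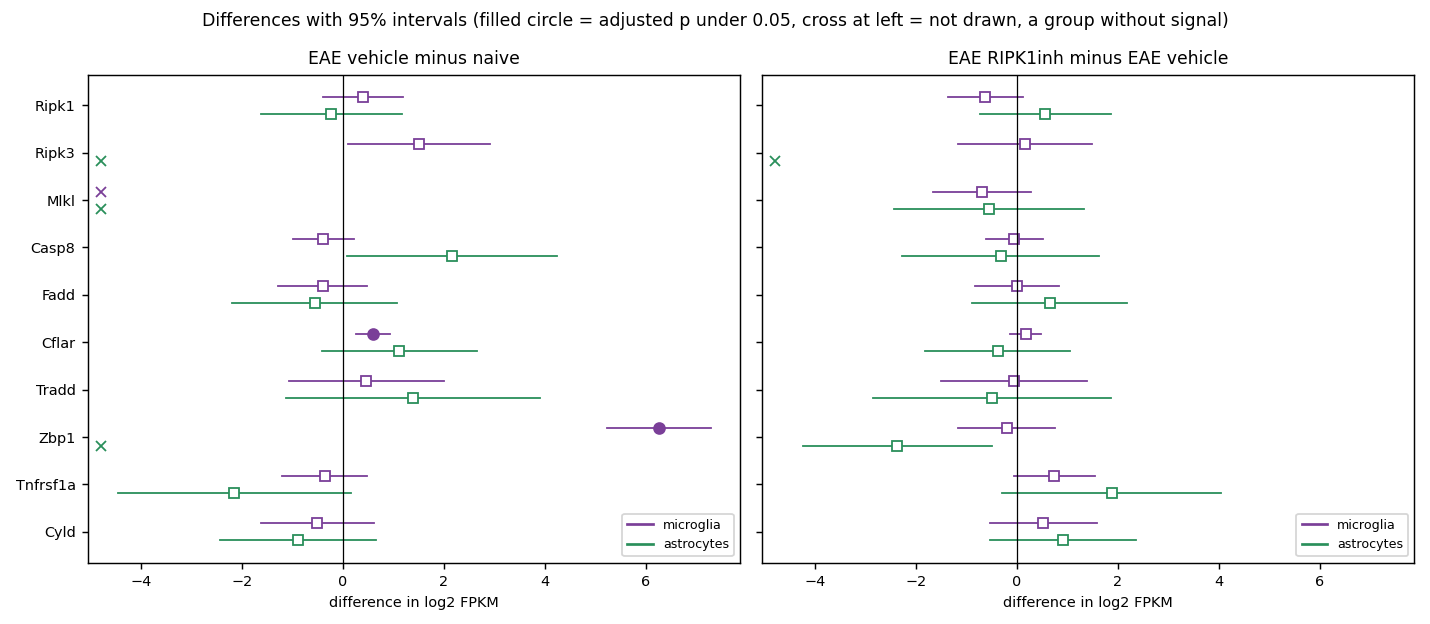
Difference in log2 FPKM (horizontal axis) with its 95% interval for each member in microglia (purple) and astrocytes (green), EAE-vehicle minus naive at the left and EAE-RIPK1inh minus EAE-vehicle at the right. Filled circles have an adjusted p under 0.05, and crosses mark members not drawn because a group had no signal. At the right, the interval lies on 1 side of 0 only for Zbp1 in astrocytes.

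The response to EAE or to the inhibitor was also compared between the cell types, in 1 fit of all 30 libraries. For EAE, 1 of 10 members was called, Casp8, at -2.55 for the microglia difference minus the astrocyte difference (SE 1.02, limma adjusted p = 0.3625), against 8.68% of 30952 genes in either direction and 3.71% lower. Microglia markers in the astrocyte libraries averaged 1.04 to 2.66 in naive and 3.01 to 5.02 in EAE-vehicle. The part of microglial RNA in the astrocyte values of Casp8 was not tested. With quality weights the Casp8 difference was -3.46 with an adjusted p of 0.01261 by limma, the 1 of 8 alternatives in which it passed the adjusted threshold. For the inhibitor, Zbp1 was called at 2.16 (SE 1.00, limma adjusted p = 0.9476), against 3.15% in either direction and 1.49% higher, and leaving out any of 10 libraries ended that call, the lowest value being 1.35 without EAE-RIPK1inh astrocyte library 5. The call also ended without microglia EAE-vehicle library 2 (2.12) or 4 (2.13), microglia EAE-RIPK1inh library 3 (2.09), 4 (2.09) or 5 (2.16), astrocyte EAE-vehicle library 1 (2.12), 5 (1.94) or 6 (2.12), or astrocyte EAE-RIPK1inh library 1 (1.70). Ripk1 differed by -1.19 (SE 0.69) and would be called without astrocyte EAE-vehicle library 2 (-1.45) or EAE-RIPK1inh library 1 (-1.50). No member passed the adjusted threshold in the fit without weights.

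The levels themselves differed between the cell types. In naive mice 5 members were called, all higher in microglia, against 19.7% of genes called in either direction and 10.0% higher. Casp8 was above the astrocyte level by 6.17 (SE 0.79, limma adjusted p = 1.1e-06), Ripk1 by 2.70 (SE 0.57, limma adjusted p = 0.001109) and Cflar by 2.13 (SE 0.57, limma adjusted p = 0.01098). These 3 passed the adjusted threshold, as did 5.94% of all genes in that direction. They were also the 3 members that did not overlap between the cell types, against 6.21% of all genes, and the exact permutation p of each was 0.0286, the smallest that 4 against 4 allow. The adjusted p of Cflar was 0.05799 without naive astrocyte library 3. Casp8 had signal in 2 of the 4 naive astrocyte libraries and Ripk1 in 3 of 4, so the sizes of their differences depend on libraries without signal.

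Ripk3 and Tradd were called without passing the adjusted threshold. No fold is given for Ripk3, since it was without signal in naive astrocytes, and its call was lost without naive microglia library 1 or 3, while leaving out naive microglia library 4 or EAE-vehicle astrocyte library 3 took it past the adjusted threshold (adjusted p of 0.04462 and 0.04039 by limma). Tradd was higher by 2.53 (SE 1.10), and its call was lost without naive microglia library 2 (2.11) or 3 (1.91) or naive astrocyte library 1 (2.20), 2 (2.35) or 4 (2.23). Without naive microglia library 4 its difference was 3.54 with an adjusted p of 0.03195 by limma. Tnfrsf1a and Cyld were not called, with differences of 0.33 (95% interval -1.55 to 2.21) and 0.75 (95% interval -0.67 to 2.17). With naive microglia library 3 left out, 3 members were called in place of 5.

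In EAE-vehicle mice 8 members were called, all higher in microglia, against 22.4% of genes in either direction and 12.4% higher. Ripk1 was higher by 3.32 (SE 0.47, limma adjusted p = 4.506e-06), Casp8 by 3.63 (SE 0.65, limma adjusted p = 0.0001452), Ripk3 by 2.61 (SE 0.61, limma adjusted p = 0.002989) and Cflar by 1.62 (SE 0.47, limma adjusted p = 0.01702). Ripk3 had signal in 1 of the 6 EAE-vehicle astrocyte libraries and Ripk1 in 3 of 6, so the sizes of their differences depend on libraries without signal. Zbp1 did not overlap between the cell types either, with a difference of 1.85 (SE 0.67, limma adjusted p = 0.06905, exact permutation p = 0.00216). The 4 that passed the adjusted threshold compare with 7.89% of all genes. Ripk1, Casp8, Cflar and Zbp1 did not overlap, as was the case for 4.83%. Tnfrsf1a, Mlkl and Fadd were called at 2.12, 1.48 and 1.32. The call of Mlkl was lost without microglia library 1 (1.40), 5 (1.29) or 6 (1.42) or astrocyte library 1 (1.30), 2 (1.02) or 4 (1.07), and that of Fadd without astrocyte library 3 (1.10) or 6 (1.16), all of the EAE-vehicle group. Tradd (1.61) and Cyld (1.13) were not called but would be without 1 library, EAE-vehicle astrocyte library 1 or 4 for Tradd and any of 6 libraries for Cyld. Zbp1 and Tnfrsf1a passed the adjusted threshold in 4 and 5 of the 30 fits without 1 library. The adjusted p of Cflar was 0.05271 without EAE-vehicle astrocyte library 1.

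In EAE-RIPK1inh mice 6 members were called, all higher in microglia, against 21.7% of genes in either direction and 11.7% higher, and 5 passed the adjusted threshold, against 7.18%. Ripk1, Ripk3, Casp8 and Zbp1 did not overlap, against 6.12% of all genes. Zbp1 was higher by 4.02 (SE 0.74, limma adjusted p = 0.0002314), Casp8 by 3.89 (SE 0.71), Cflar by 2.17 (SE 0.51) and Ripk1 by 2.13 (SE 0.51, limma adjusted p = 0.003964). Ripk3 was the fifth, with 5 microglia libraries from 2.94 to 4.08 and 5 astrocyte libraries listed at 0. Ripk1 and Zbp1 each had signal in 4 of the 5 EAE-RIPK1inh astrocyte libraries. Tradd was called at 2.04 (SE 0.98), and 14 of the 30 fits without 1 library ended that call, at 1.63 to 2.14. Mlkl (1.34) and Fadd (0.67) were not called but would be without EAE-RIPK1inh microglia library 1 or astrocyte library 4 for Mlkl and without astrocyte library 1 for Fadd. The 3 comparisons of cell types are between different libraries. The study describes both cell types as sorted from the same EAE mice, but which libraries share a mouse was not given. The main fits and the permutation tests treated these libraries as independent.

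**Figure D5:**
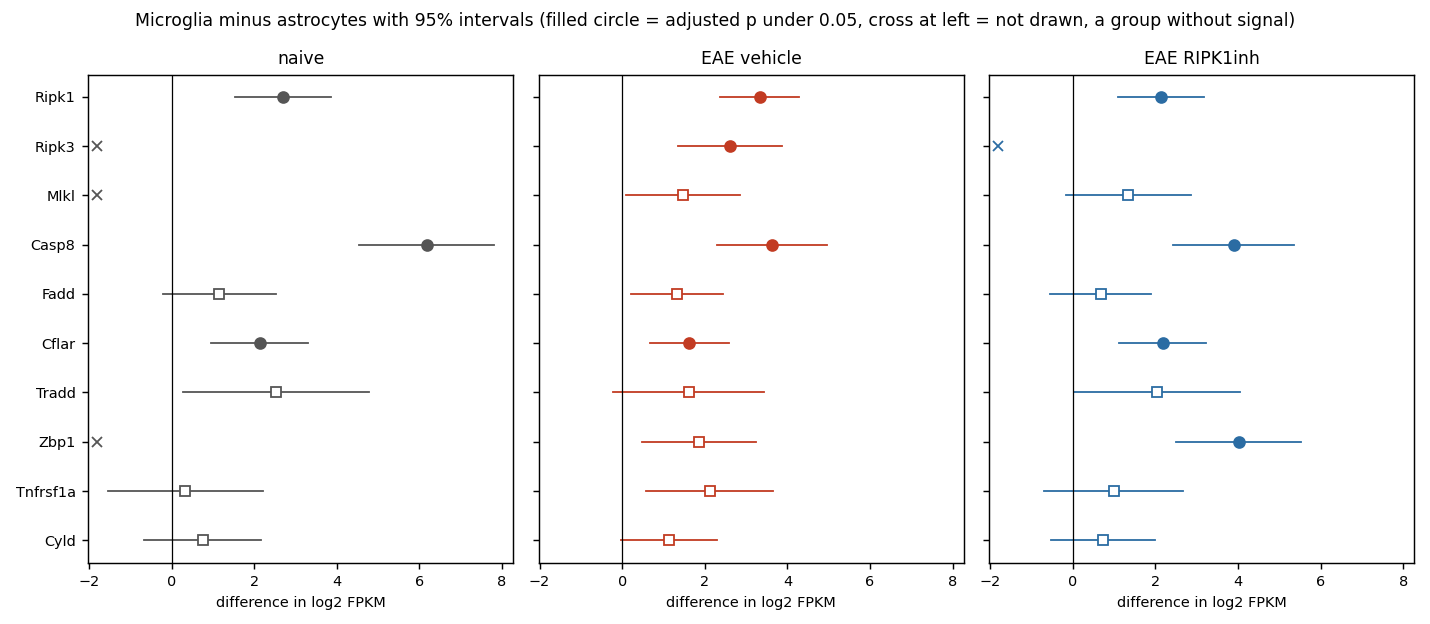
Microglia minus astrocytes in log2 FPKM (horizontal axis) with the 95% interval for each member in naive, EAE-vehicle and EAE-RIPK1inh mice. Filled circles have an adjusted p under 0.05, and crosses mark members not drawn because a group had no signal. Every drawn difference is above 0, and Ripk1, Casp8 and Cflar are filled in all 3 panels.

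The wider pathway was read from a list of 43 other genes, all tested. In EAE-vehicle against naive microglia 8 were called, 5 higher and 3 lower, and 2 passed the adjusted threshold. Fas, a death receptor that signals through FADD, had no signal in the 4 naive libraries and was between 2.49 and 4.34 in the 6 EAE-vehicle libraries (limma adjusted p = 5.6e-05). Ikbke, which encodes IKK-epsilon, a kinase that can phosphorylate RIPK1, rose by 2.41 (SE 0.63, limma adjusted p = 0.04864).

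Sharpin and Rnf31, which encode parts of the linear ubiquitin ligase LUBAC, were called higher by 2.31 (SE 0.78) and 1.84 (SE 0.64), as was Mapkapk2, which encodes the kinase MK2 that phosphorylates RIPK1, by 2.15 (SE 0.63). Stub1, Traf5 and Tnfrsf1b were called lower, with differences of -0.74, -1.20 and -1.04. The share of the list called was 18.6%, beside 12.0% of all genes, and the median difference 0.05. None of the 43 was called between EAE-RIPK1inh and EAE-vehicle microglia. Against naive, 6, or 14%, were called in EAE-RIPK1inh microglia, all higher, beside 5.35% of all genes called higher, and Fas (limma adjusted p = 0.0002238) and Rnf31 (2.81, SE 0.66, limma adjusted p = 0.03581) passed the adjusted threshold.

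In astrocytes 3 of the 43 were called between EAE-vehicle and naive, 1 higher and 2 lower, and none passed the adjusted threshold. The share was 6.98%, beside 6.71% of all genes. Tnfaip3, which encodes A20, an inhibitor of NF-kB signaling and of RIPK1-dependent death, was from 0 to 0.95 in naive and from 2.36 to 4.52 in EAE-vehicle astrocytes, a difference of 3.22 (SE 0.80, limma adjusted p = 0.1066). The groups did not overlap. Tlr3, a sensor of double-stranded RNA that reaches RIPK1 through TRIF, was from 4.27 to 5.34 in naive and from 0 to 2.48 in EAE-vehicle astrocytes, a difference of -3.87 (SE 0.90, limma adjusted p = 0.07809). The groups did not overlap there either. Groups that did not overlap were found for 0.938% of all genes with EAE-vehicle the higher and 1.3% with it the lower. How many of the 43 did so was not counted, so these shares cannot be set against the list. The stretch without signal reached 1.69 in naive astrocyte library 2 and 2.74 in EAE-vehicle astrocyte library 1. The low ranges of Tnfaip3 and Tlr3 thus include values without signal, and the sizes of both differences depend on them. Chuk, which encodes IKK-alpha, was called at a difference of -2.15 (SE 0.78). With the inhibitor 3, or 6.98%, were called against EAE-vehicle, 1 higher and 2 lower, beside 3.02% of all genes, where Birc2, a ubiquitin ligase of the TNFR1 complex, differed by -2.10 (SE 0.84) and Ikbkb, which encodes IKK-beta, by -2.06 (SE 0.92), both with a limma adjusted p of 0.8397. Against naive, 4, or 9.3%, were called in EAE-RIPK1inh astrocytes beside 4.63% of all genes, and none passed the adjusted threshold.

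Between the cell types 15 of the 43 were called in naive, 17 in EAE-vehicle and 20 in EAE-RIPK1inh mice, and 12, 10 and 13 of them were higher in microglia with an adjusted p under 0.05. The shares called were 34.9%, 39.5% and 46.5%, beside 19.7%, 22.4% and 21.7% of all genes, and 5.94%, 7.89% and 7.18% of all genes were higher with an adjusted p under 0.05. Traf5, an adaptor of TNF family receptors, was higher by 5.71 (SE 0.47), 4.42 (SE 0.39) and 3.88 (SE 0.42) in the 3 groups, and Bid, the caspase-8 substrate that links to mitochondria, by 4.08 (SE 0.80), 4.21 (SE 0.65) and 4.11 (SE 0.71). Tnfrsf1b, which encodes TNFR2, had no signal in naive astrocytes and was higher in microglia by 3.58 (SE 0.59) in EAE-vehicle and 3.30 (SE 0.64) in EAE-RIPK1inh mice. Its partner receptor Tnfrsf1a did not pass the adjusted threshold in any of the 3.

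The genes most like a member were sought among genes with signal in at least 12 of the 15 libraries of the cell type. For Zbp1 in microglia these were Gbp2, Oasl2 and Phf11a, with Pearson r of 0.99, 0.99 and 0.98 over the 15 libraries. For Mlkl they were Serpina3g, Selenow and Sod2, with r of 0.94 each. Both members separate the 4 naive from the 11 EAE libraries, as any gene that differs between those groups will, so these r are a description only. For Ripk1 they included Gimap9 and Mettl6 in microglia (0.90 and 0.90) and were Iws1, Kdm1a and Gsap in astrocytes (0.79, 0.77 and 0.73), among 9238 and 7220 genes searched.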

How the data were processed

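Spinal cord microglia and astrocytes were sorted, polyadenylated RNA was made into cDNA by a Smart-seq2-type method, and the cDNA was fragmented with Tn5. The deposited values are log2 FPKM per gene, which the authors computed in OmicSoft Array Studio and quantile normalized over all 30 libraries, so that each library holds the same sorted values and depth is unknown. The offset before the logarithm was not given in the sources used here. Quantile normalization removes any difference in total RNA. Gene positions matched GENCODE M21 on GRCm38 for all 10 members.

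The members and lists were chosen with earlier results of these data known. All 10 members are named. Of the 43 other pathway genes, the 12 or fewer with the largest difference per comparison could be named, if called and not under 1 in mean log2 level, and any may be given as a value. The 3 genes most like a member are named, except 1 that is not reported here. Comparisons used limma 3.58.1 in R 4.3.3 with an intensity trend, each cell type's 3 groups in 1 fit and all 6 groups in 1 fit for comparisons of cell types, with Benjamini-Hochberg adjustment over all genes. The fit was unpaired, while the study's own gene tests were paired, and pairing by number was tried as an alternative. It was tested on simulated data. Intervals are 95% limits from the same fit. Exact two-sided permutation tests used scipy 1.17.1. Replicates are mice, and p-values measure the spread between these libraries.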

Additional observations from a re-analysis of the deposited data

Results flagged for a closer look

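Among 58 groups of a member with differing values, 3 held a library far from the others, and chance alone gives about 1 in 20. Ripk3 in EAE-vehicle astrocytes was listed at 3.99 in library 3 and at 0 in the other 5. Tradd in naive astrocytes was at 3.68 in library 3, above the other 3 by more than their spread. Zbp1 in EAE-vehicle microglia was at 8.05 in library 5, above the other 5, which lay from 7.32 to 7.55.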

How the results depend on the processing

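The limits lie in detection: many astrocyte values had no signal, and depth is unknown. Under the alternatives no member changed direction while called. The count of members called moved by over 1.5 times in these cases. With quality weights it was 3 in place of 0 for the inhibitor in microglia (Ripk1, Mlkl and Tnfrsf1a), 0 in place of 1 for the inhibitor in astrocytes, 3 in place of 1 for EAE-RIPK1inh against naive astrocytes and 5 in place of 8 for the cell types in EAE-vehicle. The inhibitor in astrocytes gave 2 with genes of mean at least 1 and 2 with the replicate block. Leaving out the 4 libraries with few genes with signal gave 2 in place of 1 for the difference in EAE response, and leaving out both EAE-vehicle libraries numbered 1 gave 0 in place of 1 for the difference in inhibitor response; both were chosen after seeing the data. Without 1 library each, the counts ranged from 3 to 4 (EAE-vehicle against naive), 0 to 2 (inhibitor) and 3 to 4 (EAE-RIPK1inh against naive) in microglia, and from 1 to 4, 0 to 2 and 1 to 1 in astrocytes. For the cell types they ranged from 3 to 5 in naive, 7 to 9 in EAE-vehicle and 5 to 7 in EAE-RIPK1inh, and for the 2 differences in response from 1 to 1 and 0 to 2. The astrocyte count for EAE was 1 in place of 3 without naive astrocyte library 2, 3 or 4. Mlkl and Zbp1 in EAE-vehicle microglia had an adjusted p under 0.05 in 15 of 15 fits without a library and in 8 of 8 other alternatives, and Zbp1 in EAE-vehicle astrocytes in 15 of 15 and 7 of 8, the highest being 0.09715. Cflar in EAE-vehicle microglia had it in 1 of 15 and 1 of 8. Libraries with the same number were not shown to pair: of 26 pairs within a cell type the median correlation of deviations was 0.042, and 4 were over 0.1. Among 122 differently numbered pairs within a cell type the median was -0.014, and 8 were over 0.1. Between the cell types of 1 treatment, 15 same-numbered pairs had a median of 0.026, with 1 over 0.1. The 62 differently numbered pairs there had a median of -0.007, with 0 over 0.1.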
